A study of Mus musculus with 2 samples.

Results

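The complement components and regulators described here are the 9 genes C1qa, C1qb, C1qc, C1ra, C1s1, C4b, C3, Serping1 and Clu, taken by symbol from the 32285 genes of the count tables of a study of mouse mitral valve cells. They were chosen by name and role, not by their values. The valve leaflets came from C57BL/6J mice at 1 month of age, 5 of them Fbn1 +/+ (wild type) and 3 of them Fbn1 C1039G/+. The second genotype carries 1 copy of a missense allele of fibrillin-1 and is used as a mouse model of Marfan syndrome. The valves of each genotype were pooled, digested with enzymes to single cells and made into 1 droplet library of 3′-end transcript tags. With 1 library per genotype and no replicate, no p-value can be given, and the genotype cannot be told apart from the pool of mice, the digestion or the capture.

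Complement is a cascade of blood and tissue proteins that tag cells and debris for removal. In the classical pathway the recognition protein C1q, built from the chains of C1qa, C1qb and C1qc, carries the proteases C1r and C1s. C1s cleaves C4 and C2, and the enzyme that results cleaves C3, on which all activation routes meet. The C1 inhibitor, encoded by Serping1, blocks C1r and C1s, and clusterin, encoded by Clu, is an extracellular chaperone that also binds the terminal complex. Liver makes most of the circulating proteins, macrophages are a known source of C1q, and fibroblast-like cells, which include the interstitial cells that build the valve matrix, are known to make several components locally.

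The genes lie on the mouse assembly GRCm38 (mm10). The 3 C1q genes are adjacent on chromosome 4, C1qb at 136880129 to 136886187, C1qc at 136889804 to 136893065 and C1qa at 136895917 to 136898803, all on the minus strand. C1ra (124512405 to 124523443, plus strand) and C1s1 (124530345 to 124542359, minus strand) are neighbours on chromosome 6. C4b (34728380 to 34743882) and C3 (57203970 to 57228136) are on the minus strand of chromosome 17. Serping1 is on chromosome 2 (84765387 to 84775444, minus strand) and Clu on chromosome 14 (65968483 to 65981547, plus strand). C1ra, C1s1 and C4b have the near-identical copies C1rb, C1s2 and C4a, so their counts are uncertain to the extent that tags were split. The copies themselves stood at 0.475 CPM or less in the interstitial class.

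The wild type library held 100969482 UMIs in 9509 cell barcodes and the Fbn1 C1039G/+ library 103663375 in 9744, where a UMI is 1 counted transcript molecule. Kept were the 9395 and 9540 barcodes with 1000 UMIs or more and no more than 20% of UMIs from mitochondrial genes, with a median of 9827 and 9778 UMIs. Interstitial barcodes (7557 and 7768) had at least 1% of UMIs from Dcn, Col1a1, Col1a2 and Col3a1. Among the others, macrophage barcodes (839 and 876) had at least 3 UMIs of Csf1r, Adgre1 and Ms4a7, and endothelial barcodes (249 and 317) at least 5 UMIs of Pecam1, Cdh5 and Emcn. The remaining 750 and 579 barcodes met no gate. Summed levels of markers outside the gates were 29558 and 29695 CPM for 8 interstitial genes in the interstitial class, 14742 and 16242 CPM for 9 macrophage genes in the macrophage class, and 3001 and 3012 CPM for 8 endothelial genes in the endothelial class. CPM gives UMIs of a gene per 1000000 UMIs of the class in the library. Pdgfra, listed as an interstitial marker, went against that list, at 265 and 355 CPM in the endothelial class and 114 and 85.7 CPM in the interstitial class. In the endothelial class the 8 interstitial genes summed to 11419 and 13654 CPM. Vim stood there at 90.0% and 106% of its interstitial level and Postn at 53.9% and 69.4%. Lum, Mgp, Fmod, Col5a1 and Col6a1 stood at 1.16% to 15.7%. The libraries shared 17 barcode sequences, 14 and 11 barcodes met both the macrophage and the endothelial gate, and no doublet caller was run. Fbn1 stood at 413 and 447 CPM in the interstitial class, but a 3′ tag does not read the allele, so this level checks no label.

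Each step of the classical pathway had its transcripts mostly in 1 of the classes. The C1q chains were macrophage transcripts. The macrophage class, which held 8.58% of wild type and 7.33% of Fbn1 C1039G/+ UMIs, contained 82.9% and 84.05% of all C1qa UMIs, 83.2% and 83.7% of C1qb and 83.1% and 83.9% of C1qc. The proteases, C4, C3 and the C1 inhibitor had most of their UMIs in interstitial cells. By level, C3 in macrophages stood at 55.2% and 42.1% of its interstitial level, against 7.99% and 4.31% for Serping1. The interstitial class, with 82.04% and 83.5% of all UMIs, held 95.9% and 96.0% of C1ra, 96.3% and 97.3% of C1s1, 96.04% and 96.3% of C4b, 93.9% and 95.3% of C3 and 97.9% and 98.1% of Serping1 UMIs. Clu was shared, with 89.6% and 91.2% of its UMIs in interstitial barcodes and 7.67% and 6.95% in endothelial barcodes, which made up 3.74% and 4.68% of UMIs. C1q and the proteases that it carries thus came from different cell classes in both libraries.

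**Figure D1:**
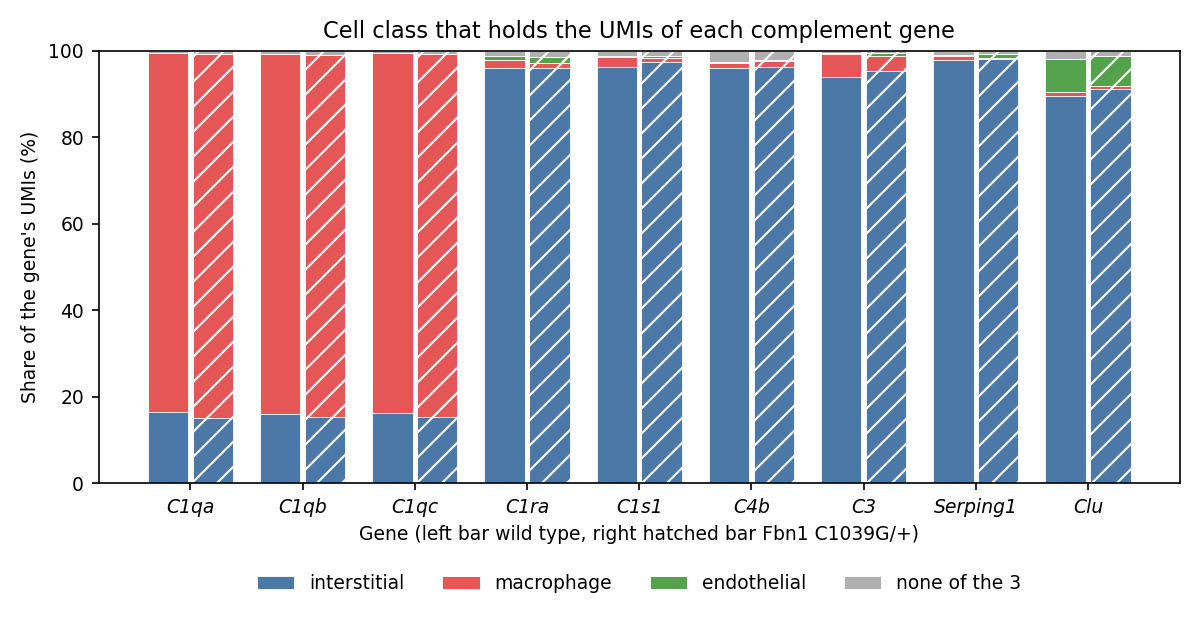
Share of each gene's UMIs (%, y axis) held by the 4 groups of barcodes, for the 9 genes (x axis), with wild type as the plain left bar and Fbn1 C1039G/+ as the hatched right bar. The 3 C1q genes are mostly red (macrophage, 82.9% to 84.05%), the next 5 genes are almost wholly blue (interstitial, 93.9% to 98.1%), and Clu has a green endothelial share of 7.67% and 6.95%.

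In levels, the C1q chains of macrophages stood highest of the 9 genes in any class, and the endothelial class had only Clu and Serping1 above 20 CPM. In interstitial cells Serping1, Clu and C4b formed a group of high level (336 to 702 CPM over both libraries), above C3, C1ra and C1s1 (17.7 to 111 CPM). Each 3′ tag marks 1 transcript whatever its length, so these levels need no length scaling, although capture can differ between genes. Comparing the libraries, a gene was called when its CPM ratio of Fbn1 C1039G/+ over wild type passed 1.5-fold and its exact 95% counting interval excluded 1, among genes that reached 20 CPM in either library and 50 UMIs in total. In the interstitial class all 9 genes were measured, 2 were lower (C1s1 and C3, beside 1.42% of the 6563 genes measured) and 1 was higher (Clu, beside 0.945%). Their median log2 ratio was -0.21, which is the value of C1qc, against 0.035 over all genes measured. The C1q chains reached 20 CPM in this class only with barcodes that also held gate markers of another class. Without those barcodes the chains stood at 6.08 to 13.8 CPM, with ratios of 1.36 to 1.54. This median therefore does not describe interstitial transcripts alone. In the macrophage class 7 were measured, 2 were lower (C3 and Serping1, beside 3.63% of 6176 genes) and 0 higher (beside 1.54%), with a median log2 ratio of 0.14 against 0.014. In the endothelial class 2 were measured, 0 were lower (beside 3.27% of 7241 genes) and 0 higher (beside 3.23%), with a median log2 ratio of 0.28 against 0.014. The intervals cover counting error alone and say nothing of the spread between mice.

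**Figure D2:**
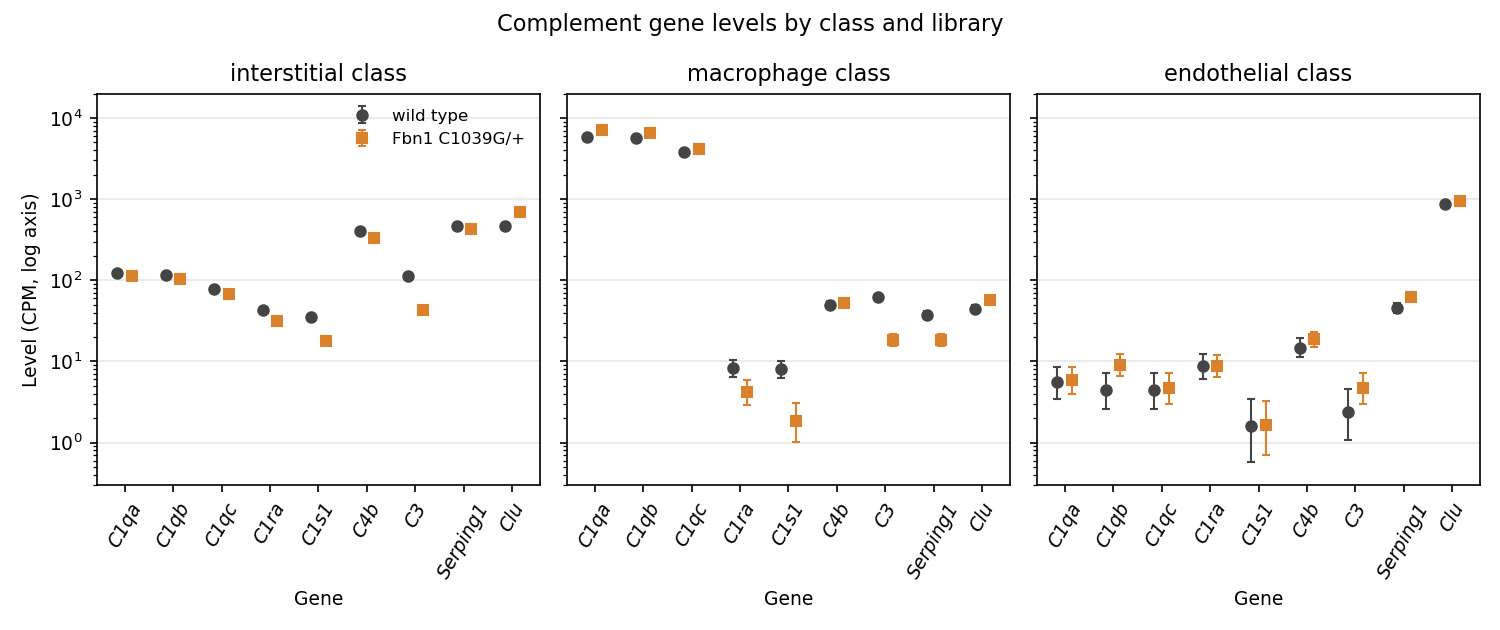
Level of each gene (CPM, log axis) in the interstitial, macrophage and endothelial class, with circles for wild type, squares for Fbn1 C1039G/+ and bars for exact Poisson 95% intervals. The C1q genes stand at 3799 to 7104 CPM in macrophages, and C3 and C1s1 are the interstitial genes whose symbols lie furthest apart downwards.

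C1qa, C1qb and C1qc encode the A, B and C chains that assemble in equal number into C1q. In macrophages C1qa stood at 5887 CPM (95% Poisson interval 5836 to 5938) in wild type and 7104 CPM (7044 to 7164) in Fbn1 C1039G/+. C1qb stood at 5689 CPM (5639 to 5740) and 6445 CPM (6388 to 6503), and C1qc at 3799 CPM (3758 to 3840) and 4191 CPM (4145 to 4237). The 3 chains were higher in Fbn1 C1039G/+ by ratios of 1.21, 1.13 and 1.10, none past 1.5-fold. They were found in 95.3%, 96.1% and 95.5% of wild type macrophage barcodes and in 98.5%, 98.4% and 98.2% of Fbn1 C1039G/+ ones. After each barcode was thinned to 1000 UMIs the shares were still 90.2% to 93.9% and 94.9% to 96.7%. C1q was therefore a trait of nearly the whole class in both libraries, not of a subset. The 5% of macrophage barcodes richest in each chain held only 13.1% to 14.0% of its UMIs in wild type and 12.3% to 12.5% in Fbn1 C1039G/+.

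The proportions of the chains were near each other in the libraries but not equal. C1qa, C1qb and C1qc made up 38.3%, 37.0% and 24.7% of C1q UMIs in wild type macrophages and 40.04%, 36.3% and 23.6% in Fbn1 C1039G/+ macrophages. The shares add up to a whole, so those of the 3 chains are not separate results. The 95% counting intervals of the C1qa share were 38.03% to 38.55% and 39.78% to 40.31%. They rest on 133034 and 134585 C1q UMIs, so they are narrow, and they cover counting error alone. In the barcodes that met no gate C1qb led, with 42.07% and 42.2%. Across the barcodes of a library the Pearson r between chains was 0.93 to 0.94 in 839 wild type macrophage barcodes and 0.87 to 0.88 in 876 Fbn1 C1039G/+ barcodes, as a description across cells that share a library and its depth. The genes whose levels followed the 3 chains most closely, by the lower of the r in the 2 libraries among 8627 genes, were Itm2b, Ms4a7, Lgmn, Fcer1g, Apoe and Aif1. For C1qa the highest was Itm2b, with r of 0.52 and 0.49. Ms4a7 is a gate gene, Lgmn encodes the lysosomal protease legumain, Apoe a lipid carrier and Fcer1g a signalling chain of Fc receptors. None of the 6 passed 1.5-fold between the libraries, the largest ratio being 1.30 for Ms4a7.

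The RefSeq promoter table (GRCm38.p6) held 5 of the 9 genes, C1qb, C1qc, C1ra, C1s1 and C3. C1qa, C4b, Serping1 and Clu are not in it. The windows run from 250 bases before to 50 bases after the annotated start. The promoters of the 2 C1q chains are shown because these genes moved together cell by cell, 5′ to 3′ on the minus strand at chr4:136886151-136886450 and chr4:136892865-136893164, with matches to AGGAAG or its reverse complement, the core bound by PU.1 and other ETS factors of the myeloid lineage, in capitals.
C1qb: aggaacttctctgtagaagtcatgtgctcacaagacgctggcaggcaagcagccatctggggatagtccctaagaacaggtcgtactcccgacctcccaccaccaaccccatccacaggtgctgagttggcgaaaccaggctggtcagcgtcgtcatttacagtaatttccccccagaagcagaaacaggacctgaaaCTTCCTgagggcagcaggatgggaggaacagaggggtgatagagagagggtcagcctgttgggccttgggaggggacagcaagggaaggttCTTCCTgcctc
C1qc: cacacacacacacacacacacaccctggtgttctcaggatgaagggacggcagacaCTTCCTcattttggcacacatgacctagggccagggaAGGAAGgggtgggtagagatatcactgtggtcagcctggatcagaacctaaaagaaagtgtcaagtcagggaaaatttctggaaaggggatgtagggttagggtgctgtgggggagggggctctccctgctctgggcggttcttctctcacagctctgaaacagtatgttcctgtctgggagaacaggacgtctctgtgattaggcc
C1qb had 2 matches, beginning 52 bases before and 39 bases after the start, and C1qc had 2, beginning 194 and 157 bases before it. On both strands 35.1% of 27025 promoters of the same length hold AGGAAG, so a match is common and is given as a description, not as a site.

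Outside macrophages, C1q UMIs in the interstitial class sat in a small group of barcodes. The interstitial level of C1qa was 123 and 113 CPM, of C1qb 115 and 104 CPM and of C1qc 78.1 and 67.2 CPM, with ratios of 0.92, 0.90 and 0.86. A set of 183 wild type and 174 Fbn1 C1039G/+ interstitial barcodes (2.42% and 2.24% of the class) also held at least 3 UMIs of the macrophage gate genes. These barcodes had a median of 19356 and 18024 UMIs, against 10086 and 10095 for the class, and C1qa at 2418 and 2502 CPM. They held 15.4% and 13.6% of all C1qa UMIs of the libraries. Without barcodes that held gate markers of another class, interstitial C1qa was 9.01 and 12.5 CPM, C1qb 8.99 and 13.8 CPM and C1qc 6.08 and 8.24 CPM. The direction between the libraries then turned, to ratios of 1.39, 1.54 and 1.36, at levels below the 20 CPM needed for a call. These residual levels were 0.153% to 0.160% of the macrophage level in wild type and 0.176% to 0.214% in Fbn1 C1039G/+. The 9 other macrophage markers had a median of 0.330% and 0.339% there, with Lyz2 at 0.198% and 0.251%. Relative to the macrophage class, the C1q levels of these barcodes were thus below the median of those markers.

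In the endothelial class, which should lack C1q, the chains were found in 6.43% to 7.63% of barcodes of the first library and 5.36% to 7.57% of those of the second, at a median depth of 11047 and 10948 UMIs against 8484 and 7662 in macrophages. C1qb stood at 4.50 and 9.08 CPM there (ratio 2.02, 95% counting interval 1.13 to 3.76), from 17 and 44 UMIs. In the barcodes that met no gate, C1qa stood at 55.8 and 95.5 CPM, C1qb at 67.2 and 114 CPM and C1qc at 36.8 and 60.9 CPM, and all 3 were called higher, beside 7.55% of the 6421 genes measured (3.50% were lower). The MHC class II genes H2-Aa, H2-Ab1, H2-Eb1 and Cd74 summed to 12291 and 18397 CPM in these barcodes, with 4 of 4 higher in Fbn1 C1039G/+. Haemoglobin transcripts summed to 139945 and 68401 CPM there, and the part of either in the C1q difference was not tested.

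C1r and C1s are the serine proteases that C1q carries, and their genes C1ra and C1s1 were read at low levels from interstitial cells. C1ra stood at 42.6 CPM (41.2 to 44.0) in wild type and 31.6 CPM (30.4 to 32.8) in Fbn1 C1039G/+, a ratio of 0.74 (counting interval 0.71 to 0.78) that did not reach 1.5-fold. C1s1 stood at 35.1 CPM (33.8 to 36.4) and 17.7 CPM (16.8 to 18.6), a ratio of 0.50 (0.47 to 0.54). C1s1 was thus called lower and C1ra was not. C1s1 was found in 18.0% and 12.7% of interstitial barcodes, and in 3.29% and 1.76% after thinning to 1000 UMIs. Its highest barcode held 27 UMIs in wild type and 9 in Fbn1 C1039G/+. In macrophages C1ra (8.32 and 4.22 CPM) and C1s1 (7.97 and 1.85 CPM) were below the level needed for a call, and in endothelial cells they stood at 8.74 and 8.87 CPM and at 1.59 and 1.65 CPM.

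The genes whose levels followed C1s1 most closely across interstitial barcodes were Igfbp3 (r 0.34 and 0.36), C2, Gas6, Spon1 and Gucy1a1. For C1ra they were Igfbp3 (r 0.28 and 0.31), Spon1, Tnxb, Scn7a and Gas6. Igfbp3, a binding protein of insulin-like growth factors, stood at 141 and 81.0 CPM and Gucy1a1, a subunit of the nitric oxide receptor, at 58.2 and 30.4 CPM, both called lower in Fbn1 C1039G/+. C2, the partner of C4 that C1s also cleaves, was level between the libraries (10.9 and 10.7 CPM, ratio 0.98). The C1s1 promoter (chr6:124542310-124542609, minus strand, AGGAAG or its reverse complement in capitals) and the C3 promoter (chr17:57228087-57228386, minus strand) are shown because these were the 2 genes called lower in interstitial cells.
C1s1: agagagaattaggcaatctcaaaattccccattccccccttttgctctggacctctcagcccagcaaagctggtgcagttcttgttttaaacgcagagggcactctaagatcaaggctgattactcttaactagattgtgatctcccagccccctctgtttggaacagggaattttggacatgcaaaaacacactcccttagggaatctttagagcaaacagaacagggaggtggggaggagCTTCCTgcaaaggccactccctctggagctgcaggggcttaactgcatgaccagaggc
C3: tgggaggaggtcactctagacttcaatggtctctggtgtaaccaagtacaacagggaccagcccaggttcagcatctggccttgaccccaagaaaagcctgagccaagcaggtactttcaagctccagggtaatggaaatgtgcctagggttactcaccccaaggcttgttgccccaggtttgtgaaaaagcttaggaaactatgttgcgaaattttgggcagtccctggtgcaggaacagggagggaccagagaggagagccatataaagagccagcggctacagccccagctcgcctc
C1s1 had 1 AGGAAG match, beginning 8 bases before the start. Neither window held TGANTCA (AP-1, in 7.93% of promoters), TTCNNNGAA (STAT, in 8.47%) or the interferon-stimulated element (in 3.49%) on either strand, which says only that these letters are not in these windows. C1ra had 1 TTCNNNGAA match, beginning 32 bases after the start.

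C4 and C3 are the substrates that coat targets once cleaved, and both had most of their UMIs in interstitial cells. C4b stood at 409 CPM (405 to 414) in wild type and 336 CPM (332 to 340) in Fbn1 C1039G/+ interstitial cells, a ratio of 0.82 (0.81 to 0.83). It was found in 47.0% and 47.3% of barcodes. C3 stood at 111 CPM (109 to 114) and 43.5 CPM (42.1 to 44.9), a ratio of 0.39 (0.38 to 0.41). Of the 9 genes in the interstitial class, C3 was thus furthest from 1. C3 was found in 15.8% and 11.8% of interstitial barcodes, and in 5.40% (4.90 to 5.93) and 3.09% (2.72 to 3.50) after thinning. A barcode with any C3 held 7.72 UMIs on average in wild type and 4.10 in Fbn1 C1039G/+. Barcodes with at least 20 C3 UMIs numbered 98 in wild type and 15 in Fbn1 C1039G/+, and the richest held 161 and 45. In endothelial barcodes, of somewhat greater depth (a median of 11047 and 10948 UMIs against 10086 and 10095), C3 was found in 3.61% and 0.946%, C1s1 in 2.01% and 1.89% and C4b in 7.23% and 14.5%. Both the share of interstitial barcodes with C3 and the amount per such barcode were therefore smaller in the Fbn1 C1039G/+ library. Without barcodes holding gate markers of another class, C3 stood at 98.5 and 42.6 CPM (ratio 0.43).

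Other transcripts moved beside C3. All 12 immediate early genes listed, among them Fos, Jun, Egr1 and Atf3, were lower in Fbn1 C1039G/+ interstitial cells, with summed levels of 5638 and 2809 CPM. Among 8 genes that respond to interferon, 7 stood higher and their sum went from 599 to 1017 CPM. The 4 MHC class II genes were all lower there, with sums of 1126 and 657 CPM, as were both haemoglobin genes, with sums of 833 and 383 CPM. Of the 9 macrophage markers 8 were lower (483 and 369 CPM), and of the 8 endothelial markers 8 were higher (67.9 and 108 CPM). Without barcodes holding gate markers of another class, the MHC class II sums were 451 and 392 CPM, with 4 of 4 lower. The macrophage marker sums were then 156 and 136 CPM, with 4 lower and 5 higher. Those of endothelial markers were 42.8 and 49.4 CPM, with 2 lower and 6 higher. Immediate early sums were still 5525 and 2801 CPM, interferon sums 563 and 989 CPM and haemoglobin sums 882 and 405 CPM. In macrophages the immediate early genes were again lower for 12 of 12, with sums of 12179 and 4402 CPM, and in endothelial cells for 5 of 12, with sums of 1947 and 2082 CPM. Immediate early genes are known to respond to tissue handling and digestion as well as to signals in life. The part of any of these transcripts in the differences of C3, C1s1 and Serping1 was not tested.

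The regulators differed from each other. Serping1, the C1 inhibitor, stood at 472 CPM (467 to 476) in wild type and 431 CPM (427 to 436) in Fbn1 C1039G/+ interstitial cells, a ratio of 0.91 (0.90 to 0.93), and was found in 80.7% and 80.0% of barcodes. Clu stood at 465 CPM (461 to 470) and 702 CPM (696 to 707), a ratio of 1.51 (1.49 to 1.53), and was found in 66.7% and 76.5% of barcodes, or 25.7% (24.7 to 26.7) and 36.2% (35.2 to 37.3) after thinning. In macrophages, at a median of 8484 and 7662 UMIs, Serping1 was found in 9.30% and 5.48% of barcodes and Clu in 12.0% and 12.0%. Clu was called higher with a ratio that barely passes the threshold and a counting interval that spans it. In endothelial cells Clu was as high as 872 CPM (843 to 902) and 954 CPM (927 to 982), a ratio of 1.09 (1.05 to 1.14), and was found in 96.4% and 97.5% of barcodes. Serping1 stood at 45.8 and 62.5 CPM there, a ratio of 1.36 (1.13 to 1.65). In endothelial barcodes the genes that followed Clu most closely were Ecm1 (r 0.29 and 0.29), Grina, Crip2, Fxyd5 and Ctla2a, and of these Ctla2a was called lower in Fbn1 C1039G/+, at 1662 and 1004 CPM.

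**Figure D3:**
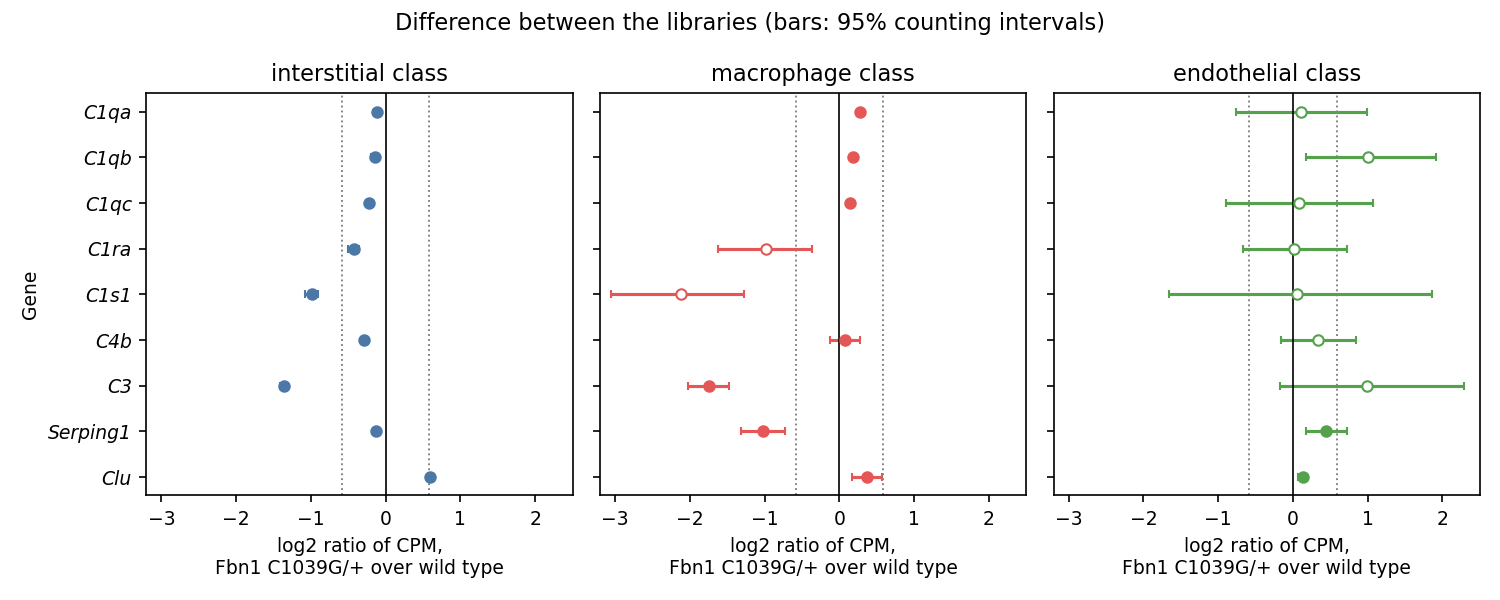
log2 ratio of CPM, Fbn1 C1039G/+ over wild type (x axis), for the 9 genes in each class, with bars for exact 95% counting intervals. Filled symbols passed the level filter, open ones did not, and dotted lines mark 1.5-fold. C3 lies left of the line in the interstitial and the macrophage class, C1s1 in the interstitial class, and Clu sits on the right-hand line in the interstitial class.

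In macrophages C3 and Serping1 were the 2 genes called lower. C3 stood at 61.4 CPM (56.3 to 66.8) in wild type and 18.3 CPM (15.4 to 21.6) in Fbn1 C1039G/+, a ratio of 0.30 (0.25 to 0.36). Serping1 stood at 37.7 CPM (33.7 to 42.0) and 18.6 CPM (15.6 to 21.9), a ratio of 0.49 (0.40 to 0.60). Few barcodes carried these counts. The 5 richest barcodes held 275 of 531 C3 UMIs in wild type and 52 of 139 in Fbn1 C1039G/+, and 143 of 326 and 76 of 141 Serping1 UMIs. Interstitial markers moved with them, 8 of 8 lower in Fbn1 C1039G/+ macrophages, with sums of 3475 and 2886 CPM. In 48 wild type and 23 Fbn1 C1039G/+ macrophage barcodes at least 0.3% of UMIs came from Dcn and the 3 collagen genes, and C3 stood at 303 and 79.7 CPM in these. In the other 791 and 853, C3 was 27.3 and 14.3 CPM (ratio 0.52, 0.41 to 0.67) and was still called lower. Serping1 was 6.86 and 6.60 CPM there (ratio 0.96), below the level needed for a call. The C3 level of macrophages was 55.2% and 42.1% of the interstitial level, whereas the 8 interstitial markers had a median of 5.9% and 3.1%, with Vim highest at 26.7% and 23.4%. Without the barcodes rich in Dcn and collagen, C3 was at 24.5% and 32.9% of the interstitial level and Vim at 23.7% and 21.4%, so the order of the libraries turned for C3.

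In wild type macrophages C3 was higher in barcodes rich in MHC class II, and in Fbn1 C1039G/+ macrophages it was level. Barcodes with at least 1% of UMIs from the 4 MHC class II genes numbered 543 and 483, and C3 stood at 83.7 and 18.4 CPM in them (ratio 0.22, 0.17 to 0.28). In the 296 and 393 barcodes below 1%, C3 stood at 23.6 and 18.3 CPM (ratio 0.77, 0.55 to 1.09), where the interval includes 1. Other mainly interstitial transcripts differed between the groups too, but not in 1 direction. Serping1 stood at 48.0 and 26.4 CPM in the first and 20.2 and 11.0 CPM in the second. C1s1 stood at 11.8 and 2.13 CPM in the first and 1.55 and 1.57 CPM in the second. C1ra stood at 9.20 and 2.93 CPM in the first and 6.84 and 5.48 CPM in the second. C4b was lower in the first (43.6 and 28.7 CPM) than in the second (60.9 and 76.0 CPM) in both libraries. Clu stood at 39.0 and 68.9 CPM in the first and 54.1 and 47.0 CPM in the second. The part of the barcodes rich in Dcn and collagen in this C3 pattern was not tested. Of all macrophage barcodes 134 and 119 lay between 0.5% and 2%, near that limit. The groups are ranges of a score, and whether they are cell types was not tested. C1q differed less between these groups than C3 did in wild type, with C1qa at 5583 and 6780 CPM in the first and 6400.0 and 7421 CPM in the second. Cfb, Gbp2, Ly6a, Ccl5 and Fgl2 were the genes whose levels followed C3 most closely in macrophages, looked up after its values were seen. Cfb, the alternative pathway protease that partners C3, stood at 41.6 and 29.7 CPM, and Gbp2, an interferon-induced GTPase, at 71.8 and 39.3 CPM.

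The pools held mice of both sexes, so the female and male cells of a library come from different animals. Sex was read from Xist and 4 Y-linked genes, which gave 3496 female and 3130 male interstitial barcodes in wild type and 3731 and 2920 in Fbn1 C1039G/+. C3 stood at 79.7 CPM in female and 141 CPM in male wild type cells, and at 41.8 and 43.2 CPM in female and male Fbn1 C1039G/+ cells. The wild type sexes were far apart and the Fbn1 C1039G/+ sexes close, with both of the latter below both of the former. C1s1 stood at 30.4 and 38.8 CPM in wild type and at 16.9 and 18.4 CPM in Fbn1 C1039G/+ female and male cells. C1ra stood at 42.7 and 42.4 CPM against 30.9 and 32.2 CPM, and Serping1 at 475 and 479.8 CPM against 418 and 437 CPM. For these 4 genes both Fbn1 C1039G/+ values lay below both wild type values, beside 17.8% of the 6563 genes measured.

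Clu and C4b went other ways by sex. Clu stood at 521 and 418 CPM in female and male wild type cells and at 608 and 782 CPM in Fbn1 C1039G/+ cells, with both of the latter higher, beside 37.5% of genes. The Clu ratio was 1.17 in female and 1.87 in male cells. C4b stood at 462 and 367 CPM in wild type and at 263 and 397 CPM in Fbn1 C1039G/+, so it was lower in female cells (ratio 0.57, 0.56 to 0.58) and close to level in male cells (1.08, 1.06 to 1.11). Whether the sexes differ beyond the spread between mice was not tested. In macrophages C3 stood at 25.2 and 88.4 CPM in female and male wild type cells and at 13.1 and 12.7 CPM in Fbn1 C1039G/+ cells.

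**Figure D4:**
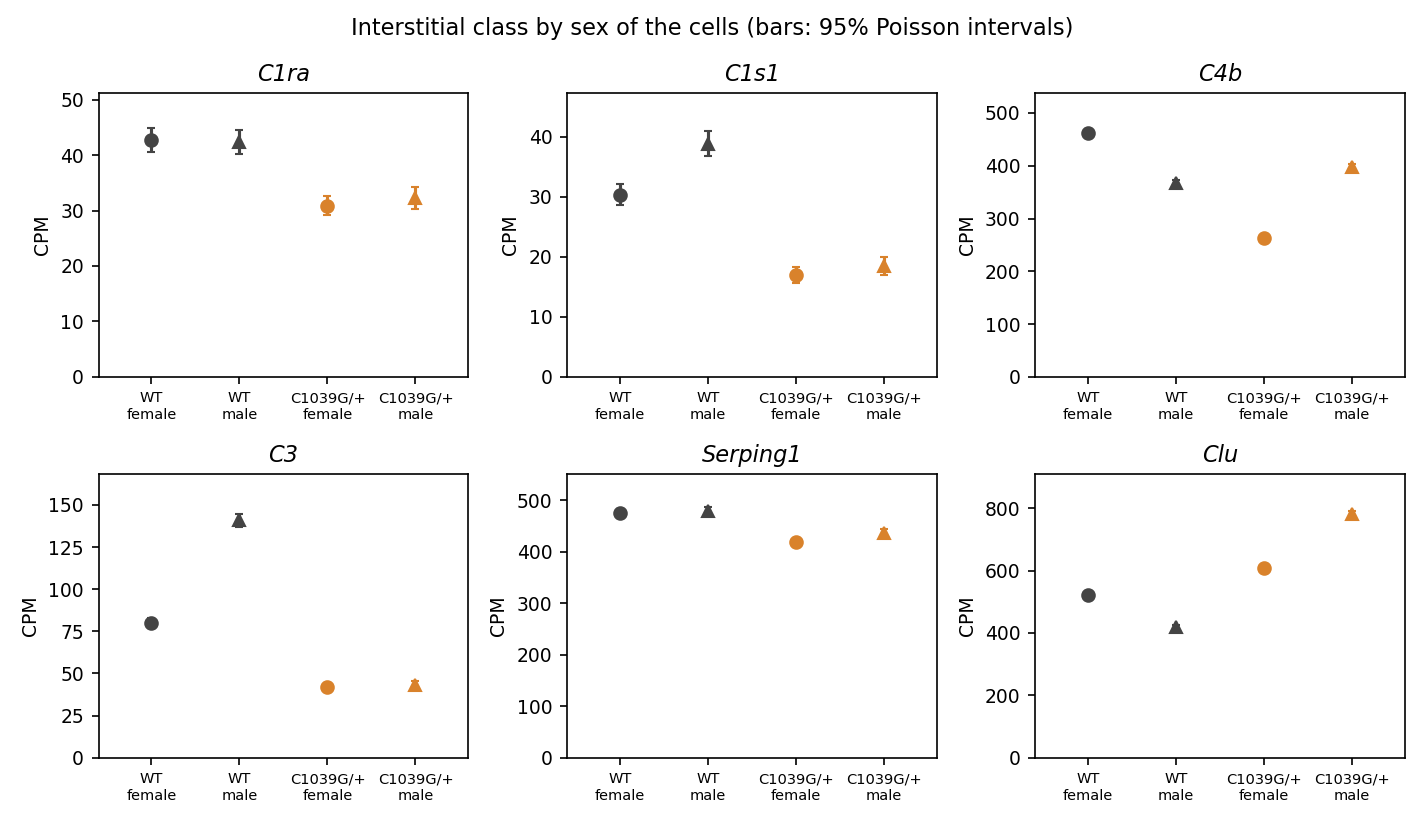
Level (CPM, y axis from 0) of 6 genes in female (circles) and male (triangles) interstitial barcodes of the wild type (grey) and Fbn1 C1039G/+ (orange) library, with bars for exact Poisson 95% intervals. For C1ra, C1s1, C3 and Serping1 both orange symbols lie below both grey ones, for Clu both lie above, and for C4b they lie on either side.

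Within the interstitial class the protease, substrate and inhibitor genes were correlated across cells, and Clu was close to uncorrelated with them. Across barcodes C4b and Serping1 had a Pearson r of 0.58 in wild type and 0.51 in Fbn1 C1039G/+, C3 and C4b 0.50 and 0.40, C3 and Serping1 0.48 and 0.36, and C3 and C1s1 0.48 and 0.30. Clu had r between -0.12 and 0.060 with each of the other 8 genes in either library. These are descriptions over 7557 and 7768 barcodes of 1 library each. C1s1 was found in 49.5% of the 1192 wild type barcodes with C3 and in 12.1% of those without. In Fbn1 C1039G/+ it was found in 34.7% of 917 barcodes with C3 and in 9.75% of those without. C4b was found in 79.3% and 79.9% of barcodes with C3 and in 40.9% and 42.9% of those without. Clu was found in 69.6% and 77.1% of barcodes with C3 and in 66.1% and 76.4% of those without. Barcodes with C3 were slightly deeper, at a median of 11339 against 9917 UMIs in wild type and 11170 against 9936 in Fbn1 C1039G/+. The 5% of barcodes richest in C3 held 79.9% and 80.8% of its UMIs, while the same share for C1s1 was 59.5% and 60.8%, for C4b 45.8% and 44.2%, and for Serping1 29.4% and 26.8%. For the C1q chains it was 94.3% to 97.1%. Without barcodes holding gate markers of another class, the richest 5% held 80.2% and 81.2% of C3 UMIs, 71.7% and 70.9% of C1qa, 69.8% and 68.6% of C1qb and 93.5% and 87.4% of C1qc. Of these barcodes 85.1% and 88.4% had no C3 UMI. For C1qa it was 92.3% and 91.0%, for C1qb 92.1% and 90.3% and for C1qc 94.6% and 93.9%. With so few barcodes holding a UMI, the C1q shares would be high even for scattered UMIs, so they do not compare with those of Serping1 or C4b.

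Among 9769 genes, those that followed C3 most closely across interstitial barcodes were Mmp3 (r 0.46 and 0.38), Scn7a, Svep1, Gas6 and Fgl2. For C4b they were Gas6 (r 0.59 and 0.48), Fgl2, Mmp3, Scn7a and Tnxb, and for Serping1 Scn7a (r 0.52 and 0.51), Fgl2, Tnxb, Gpm6b and Gas6. Mmp3 encodes the matrix protease stromelysin, Gas6 a ligand of the TAM receptors and Tnxb the matrix protein tenascin X. Of these companions of C3, Fgl2 was lower in Fbn1 C1039G/+ by a ratio of 0.74 and the others differed by less. Mmp3 stood at 238 and 256 CPM, Scn7a at 52.3 and 54.9 CPM, Svep1 at 18.2 and 17.8 CPM, Gas6 at 517 and 512 CPM, and Fgl2 at 221 and 164 CPM, none past 1.5-fold.

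Interstitial barcodes were then grouped by the summed share of Gas6, Scn7a, Mmp3, Fgl2 and Tnxb, a grouping chosen after these values were seen. These are the companions of C4b in the same barcodes. A rise of C4b, and of genes correlated with it such as C3, from the low to the high group therefore follows from the choice. Below 0.05% lay 54.3% and 52.6% of barcodes, from 0.05% to 0.2% lay 32.0% and 34.8%, and at or above 0.2% lay 13.7% and 12.5%. C3 stood at 23.7 and 9.48 CPM in the low, 71.9 and 28.4 CPM in the middle and 543 and 228 CPM in the high group, with ratios of 0.40, 0.40 and 0.42. The C3 ratio was thus of like size in each group, and the groups had like shares in both libraries. Of the grouping genes, Fgl2 and Tnxb were themselves lower in Fbn1 C1039G/+ (ratios 0.74 and 0.84). Gas6, Scn7a and Mmp3 had ratios of 0.99 to 1.07. The part of the cell make-up of the class in the C3 difference was not tested. C1s1 stood at 14.1 and 7.49 CPM, 29.3 and 16.5 CPM, and 130 and 63.3 CPM, with ratios of 0.53, 0.56 and 0.49. C4b was higher in Fbn1 C1039G/+ in the low group (77.8 and 97.5 CPM) and lower in the high group (1843 and 1392 CPM). Clu went the other way in level, with 540 and 823 CPM in the low group and 371 and 523 CPM in the high group, and was higher in Fbn1 C1039G/+ in each, by 1.53, 1.54 and 1.41.

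**Figure D5:**
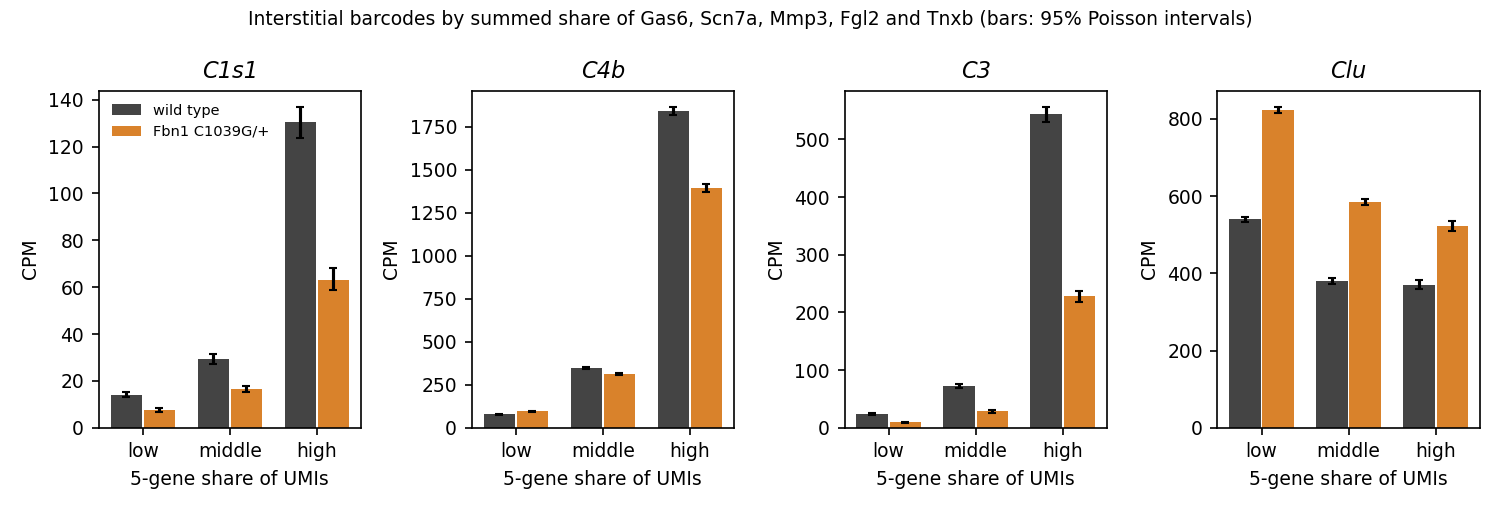
Level (CPM, bars from 0) of C1s1, C4b, C3 and Clu in interstitial barcodes with a low, middle or high summed share of Gas6, Scn7a, Mmp3, Fgl2 and Tnxb, with wild type in grey, Fbn1 C1039G/+ in orange and exact Poisson 95% intervals. C3 reaches 543 and 228 CPM in the high group and keeps a ratio of 0.40 to 0.42 in all 3 groups, while Clu is highest in the low group.

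Of 46 further complement genes, 25 stood under 1 CPM in both libraries in the interstitial class, 25 in the macrophage class and 26 in the endothelial class. In the interstitial class 5 were measured, 0 were lower (beside 1.42% of genes) and 0 higher (beside 0.945%). Among them the scavenger collectin Colec12 stood at 324 and 249.8 CPM (ratio 0.77) and the membrane inhibitor Cd59a at 133 and 155 CPM (ratio 1.17). Cfb stood at 15.8 and 5.27 CPM (ratio 0.33, 0.30 to 0.37) there, below the level needed for a call. In macrophages 13 were measured, 2 were higher (beside 1.54% of genes) and 1 was lower (beside 3.63%). Fcna, the recognition protein ficolin A, stood at 24.2 and 38.6 CPM and Cfp, which encodes properdin, at 91.3 and 145 CPM, while C2 was lower, at 24.3 and 15.8 CPM. The receptors for the C3 and C5 fragments, C3ar1 (273 and 279 CPM) and C5ar1 (204 and 227 CPM), were macrophage transcripts with ratios of 1.02 and 1.11. In endothelial cells 7 were measured, and Colec11, a collectin of the lectin pathway, was the 1 called, higher at 28.3 and 46.2 CPM (beside 3.23% of genes higher and 3.27% lower). The membrane inhibitors Cd59a (362 and 367 CPM) and Cd55 (283 and 281 CPM) had ratios of 1.01 and 0.99 there. Of the 7 terminal components, 6 stood under 1 CPM in both libraries in each class.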

How the data were processed

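The data are raw UMI counts per gene and barcode from 1 droplet library per genotype, which the authors made with Cell Ranger on mm10. The submitters' processing notes name Cell Ranger 3.1.0 and, per the file headers, the matrix names 5.0.1. The authors had already chosen the barcodes that hold cells, so free RNA was not measured. Genes were placed on mm10 by identifier (32235 of 32285).

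Counts were summed by class and library and scaled to CPM with Python 3.11.15, numpy 2.4.6 and scipy 1.17.1. Levels have exact Poisson, shares Clopper-Pearson and ratios exact conditional binomial 95% intervals, which cover counting error only. log2 ratios use a pseudocount of 1 CPM. Companions of each gene were the 5 genes (no members, mitochondrial genes or gene models) with the highest Pearson r of log counts per 10000 UMIs in its highest class, by the lower of both libraries, among genes in at least 5% of barcodes. Named genes are the 9 members, their companions, further complement genes called or leading a role, markers and Fbn1; some genes under this rule are not reported here. The members, lists, classes and thresholds were chosen with earlier results of these data known. The calling procedure was tested on simulated counts that held counting error only. That test therefore says nothing of the spread between mice or libraries. Alternatives varied gates, depth, scaling, thinning, doublets, thresholds and sex.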

Additional observations from a re-analysis of the deposited data

Results flagged for a closer look

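Several genes differed in direction between classes or sexes, or showed a signal in barcodes that the comparisons left out. These differences were not tested, since each rests on 1 library per genotype. The ratios are CPM in Fbn1 C1039G/+ over wild type.

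The C1q chains stood below 1 in interstitial and above 1 in macrophage barcodes. C1qa had ratios of 0.92 and 1.21, C1qb of 0.90 and 1.13, with 2.02 in endothelial barcodes, and C1qc of 0.86 and 1.10. Without barcodes holding gate markers of another class the interstitial ratios were 1.39, 1.54 and 1.36, so the opposite direction rests on those barcodes. Serping1 had ratios of 0.91 in interstitial, 0.49 in macrophage and 1.36 in endothelial barcodes. Without the barcodes rich in collagen and Dcn the macrophage ratio was 0.96 (6.86 and 6.60 CPM).

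C4b had a ratio of 0.57 in female and 1.08 in male interstitial cells.

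The 114 wild type and 204 Fbn1 C1039G/+ barcodes that failed the filter on depth or mitochondrial share, with a median of 837 and 768 UMIs, held the C1q chains at ratios of 1.46 for C1qa (1035 and 1506 CPM), 1.65 for C1qb (973 and 1609 CPM) and 1.49 for C1qc (654 and 975 CPM).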

How the results depend on the processing

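C3 was called lower in 12 of 12 interstitial and 15 of 15 macrophage settings of gates, filters, scaling, sex and left-out barcodes, and C1s1 in 12 of 12 interstitial ones. Within macrophages low in MHC class II, C3 was not called (log2 ratio -0.35). The Clu call in interstitial cells held in 8 of 12. The number of genes called lower in interstitial cells went from 2 to 1 (C3) at a 2-fold threshold and to 3 (C4b added) in female barcodes. The number called higher there went from 1 to 0 with the interstitial gate at 2%, median ratio scaling, a total without mitochondrial and ribosomal genes, a 2-fold threshold, or female barcodes alone. In macrophages the number called lower went from 2 to 4 with the gate at 2% or no level filter (C1ra and C1s1 added), and to 1 (C3) with the gate at 0.5%, without the 8% of barcodes with most UMIs, with thinning, with a mean over barcodes, or without barcodes rich in collagen and Dcn. In the last of these settings Serping1 was below the level needed for a call. The number called higher in macrophages went from 0 to 1 (Clu) without barcodes that hold gate markers of another class, at the lower fold threshold or in male barcodes. In endothelial cells the number called higher went from 0 to 2 (C4b and Serping1) without the 8% of barcodes with most UMIs or in female barcodes, and to 1 with no level filter (C1qb) or at the lower fold threshold (Serping1). The number called lower there was 0 in every setting. The causes were not tested. The log2 ratio of interstitial C3 ranged from -1.68 to -0.92, of C1s1 from -1.04 to -0.81 and of Clu from 0.22 to 0.90, and that of macrophage C3 from -2.71 to -0.80 apart from the MHC class II groups. The settings with barcodes rich in collagen and Dcn, without the richest C3 barcodes and by MHC class II or companion genes were chosen after seeing the data. No paired analysis was possible because each genotype has 1 library. The 249 and 317 endothelial barcodes limit what could be called in that class.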
